A study of Mus musculus with 7 samples.

Results

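The genes described here carry cholesterol out of a macrophage: the liver X receptors (LXR) Nr1h2 and Nr1h3, their target genes Abca1, Abcg1 and Pltp, the ester hydrolases Lipa and Nceh1, and the lysosomal sterol transporters Npc1 and Npc2. The 9 genes were named as a set by their role, with earlier results of these data known, so counts set beside all genes are descriptive. Each gene was looked up among probe sets with 1 gene symbol, and where a gene had several the brightest on average stood for it. Of the 9 genes, 7 were found among the 9999 genes tested. Nr1h2 and Nr1h3, which encode LXR beta and LXR alpha, were not among them and are not analysed here. The samples were RAW264.7 cells, a mouse macrophage-like line from a virus-induced tumour, hybridised to 7 Affymetrix arrays. The 3 arrays of wild-type cells carry the label RAW WT and the 4 arrays of Gfi1 knockout cells carry the label RAW GfI1-1, all at T0 and untreated, in medium with fetal bovine serum. The titles call all 7 samples biological replicates; how the gene was edited, and whether the 4 knockout samples came from 1 clone or several, was not stated in the labels. Below, knockout means arrays so labelled.

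As background, cholesteryl esters that a macrophage takes up with lipoproteins are hydrolysed in the lysosome by the acid lipase encoded by Lipa. The freed sterol is handed by NPC2 to NPC1, which moves it out of the lysosome, and sterol stored in lipid droplets as ester is released by neutral hydrolases such as the product of Nceh1. LXR proteins bind oxysterols and, as dimers with retinoid X receptors, raise the transcription of Abca1 and Abcg1, whose transporters load cholesterol onto apolipoproteins and HDL, and of Pltp, whose product moves phospholipid between lipoproteins. In macrophages this route opposes foam cell formation.

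LXR dimers bind direct repeats of a hexamer spaced by 4 bases, so the sequences ahead of the genes were searched before their values are given. RefSeq promoter windows of build GRCm38.p6, running from 250 bases before to 50 bases after a start, were searched for 7 of the 9 genes. Abcg1 had no window in the set used and Npc1 was left out before the search, so the matches below do not cover them. Upstream stretches of 250 bases are printed 5′ to 3′ on the gene's strand for Abca1, which has an LXR-type repeat, for Pltp, which showed the largest difference between the groups, and for Nceh1, which has an E-box. Capitals mark the relaxed repeat and the E-box. The stretches are chr4:53159896-53160145 (minus strand), chr2:164857709-164857958 (minus strand) and chr3:27182754-27183003 (plus strand).
Abca1: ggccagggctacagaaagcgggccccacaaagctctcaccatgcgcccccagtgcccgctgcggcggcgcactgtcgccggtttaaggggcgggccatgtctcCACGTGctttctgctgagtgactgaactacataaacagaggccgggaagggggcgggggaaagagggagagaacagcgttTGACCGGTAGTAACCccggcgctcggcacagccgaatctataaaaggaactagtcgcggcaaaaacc
Pltp: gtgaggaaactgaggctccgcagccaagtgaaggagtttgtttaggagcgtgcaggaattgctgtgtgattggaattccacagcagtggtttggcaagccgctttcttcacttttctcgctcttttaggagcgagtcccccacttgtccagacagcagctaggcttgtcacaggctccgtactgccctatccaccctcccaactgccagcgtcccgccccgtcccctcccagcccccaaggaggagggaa
Nceh1: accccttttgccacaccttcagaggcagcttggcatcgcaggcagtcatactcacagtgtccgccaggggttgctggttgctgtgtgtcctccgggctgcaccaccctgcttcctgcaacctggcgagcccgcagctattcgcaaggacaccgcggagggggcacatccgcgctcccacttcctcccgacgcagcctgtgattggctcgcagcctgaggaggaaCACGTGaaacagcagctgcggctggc

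The 16-letter consensus repeat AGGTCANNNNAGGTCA, searched on both strands, was in none of these windows and in 0.0152% of all 32851 promoter windows. A relaxed form, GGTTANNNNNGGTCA, worded after the Abca1 window had been read, occurred in Abca1 as GGTTACTACCGGTCA on the opposite strand, with its far end 67 bases before the start. It occurred in 0.0487% of all windows and in no window of the other 6 genes. The E-box CACGTG lay 147 bases before the start of Abca1 and 26 bases before that of Nceh1, and was in 7.15% of all windows. The half-site AGGTCA (part of the consensus repeat, 16.3% of windows) and AAATCA, a 6-letter form of the Gfi1 site (14.0%), were not found in the windows of these 7 genes. The shorter AATC within it was not searched. That string or its reverse complement GATT can be read in each printed stretch, so the absence concerns the longer form only. A match is a description of letters and no evidence of binding.

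Genes of ester hydrolysis, Abcg1 and Pltp read lower in the arrays labelled knockout, while the lysosomal transporter genes and Abca1 did not pass the test. Of the 7 measured genes, 4 were lower (Pltp, Lipa, Nceh1 and Abcg1) and 0 were higher at a limma adjusted p under 0.05. Across all 9999 genes, 43.1% passed and 21.6% passed as lower, so a passing gene is common in this comparison. The median difference of the 7 was -0.41 on the log2 scale, beside -0.0057 over all genes, and the median size of difference was 0.41 beside 0.28. The 4 knockout arrays lay wholly above the wild-type arrays for 1 gene and wholly below for 5, a separation that 54.5% of all genes showed. The knockout arrays came as 2 close pairs, as described after the genes. In a setting chosen after the data were seen, similar arrays were treated as random blocks: the wild-type arrays together, and each knockout pair. Pltp and Lipa still passed in that fit, and 9.04% of all genes did. Wild type was then a single block while degrees of freedom were counted by array, so these p-values can still be too small. With each knockout pair averaged, but the equally close wild-type arrays kept as separate units, the same 4 genes passed, and 30.1% of all genes. All values of single genes are log2 signals of the deposited RMA values, and differences are taken only between arrays for the same probe set. Words such as bright or dim, and places among all genes, set different probe sets side by side and are a rough guide only.

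**Figure D1:**
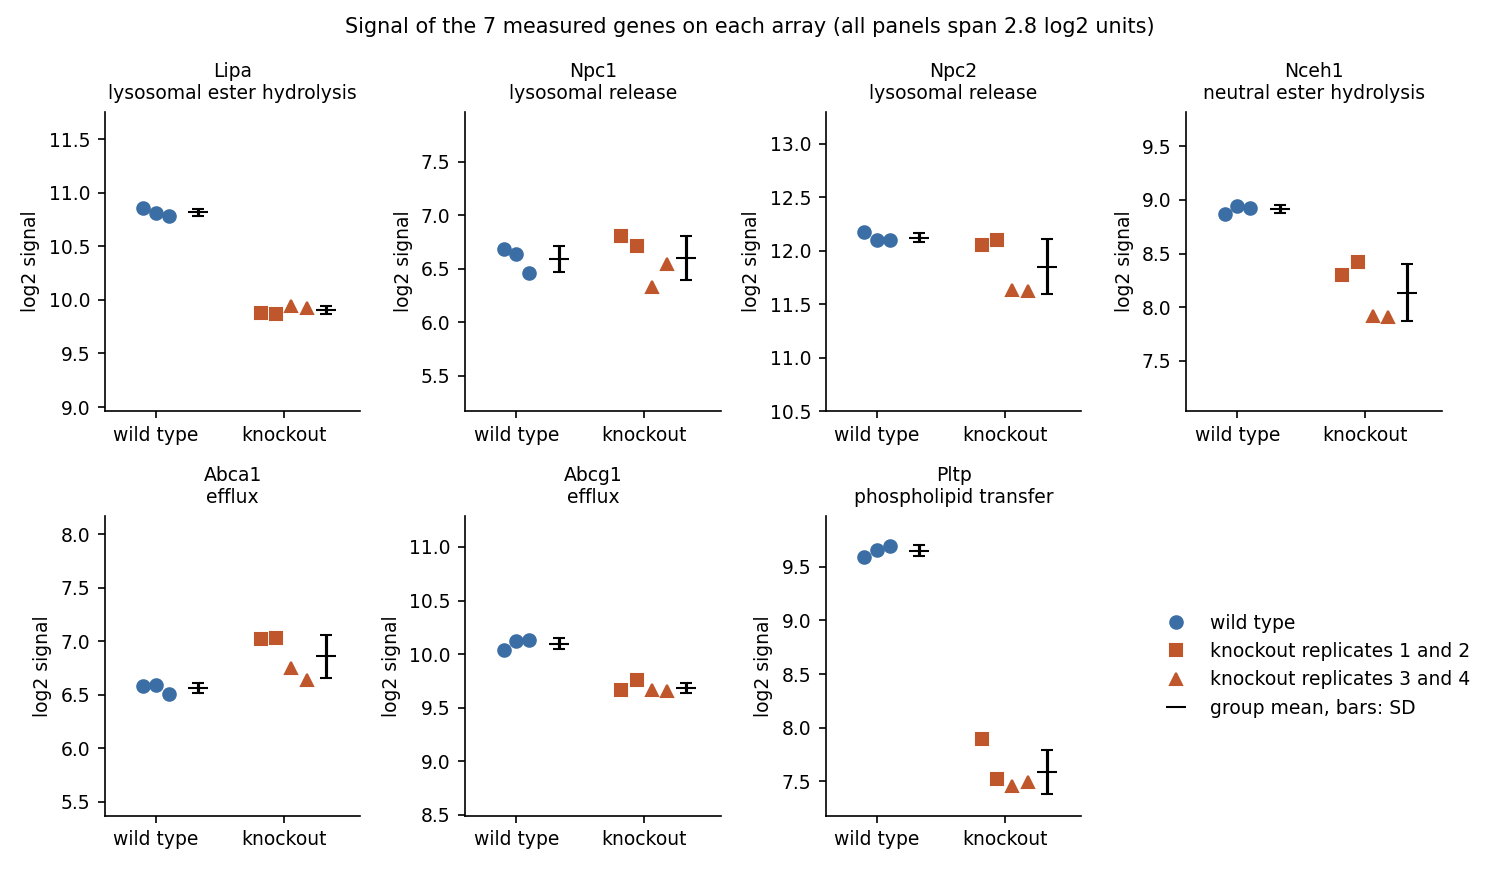
Each panel plots the log2 signal of 1 gene on each of the 7 arrays, with circles for wild type, squares for knockout replicates 1 and 2, triangles for replicates 3 and 4, and the group mean with its SD; every panel spans the same number of log2 units. The 4 knockout points lie below all wild-type points for Lipa, Nceh1, Abcg1, Pltp and Npc2, above them for Abca1, and among them for Npc1.

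Lipa encodes lysosomal acid lipase, the enzyme at the head of the route. Its wild-type signals, by replicate, were 10.85, 10.81 and 10.78, and its knockout signals were 9.88, 9.86, 9.95 and 9.93. The groups did not overlap, and the knockout arrays lay close together. From 10.82 ± 0.03 (SD, n = 3) the mean fell to 9.90 ± 0.04 (SD, n = 4), with a difference of -0.91 (SE 0.06, limma adjusted p = 5.25e-05), or 1.88-fold lower. The other 2 probe sets of Lipa gave -1.05 and -0.99. With similar arrays as random blocks the adjusted p was 0.00749. Among the 7 genes, Lipa changed with the least spread between knockout arrays: its difference was -0.95 from replicates 1 and 2 alone and -0.88 from replicates 3 and 4 alone.

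Npc2, the soluble carrier that takes cholesterol from the lysosomal lumen, gave different answers by probe set. The brightest probe set read 12.17, 12.10 and 12.10 in wild type, against knockout signals of 12.06, 12.09, 11.63 and 11.63. Knockout replicates 1 and 2 lay just under the lowest wild-type array and replicates 3 and 4 lay clearly below it. The mean was 12.12 ± 0.04 (SD, n = 3) and 11.85 ± 0.26 (SD, n = 4), a difference of -0.27 (SE 0.14, 95% interval -0.60 to 0.06), which did not pass (limma adjusted p = 0.153). Replicates 3 and 4 alone gave -0.50 (adjusted p = 0.000397; 57% of all genes passed in that fit), and replicates 1 and 2 alone gave -0.05 (adjusted p = 0.470; 68.1% of all genes passed).

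A second bright Npc2 probe set behaved like the first, with knockout replicates 1 and 2 at 0.05 and 0.08 from the wild-type mean and the other two at -0.56 and -0.55. The third, a much dimmer reading, was 6.88, 7.03 and 6.83 in wild type and 5.47, 5.26, 5.56 and 5.41 in knockout, lower in all 4 knockout arrays. Its difference was -1.49 (SE 0.09), with a limma adjusted p of 8.43e-05 over all probe sets, of which 39.4% passed. Averaging the 3 probe sets gave -0.67 (adjusted p = 0.00239). Which part of the transcript each probe set reads is not given in the sources used here, so no single direction is given for Npc2.

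Npc1, the membrane protein that exports the sterol, had 1 probe set and no detectable difference. It read 6.68, 6.64 and 6.46 in wild type and 6.80, 6.71, 6.33 and 6.54 in knockout. The groups overlapped, with knockout replicates 1 and 2 above every wild-type array and replicate 3 below every one. The difference was 0.0072 (SE 0.12, limma adjusted p = 0.968), with a 95% interval of -0.28 to 0.30. Its sign turned when wild-type replicate 3 or knockout replicate 1 or 2 was left out.

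Nceh1, the neutral hydrolase of stored esters, was lower in every knockout array. It read 8.87, 8.95 and 8.92 in wild type against 8.30, 8.42, 7.92 and 7.91 in the knockout arrays. The groups did not overlap, and replicates 3 and 4 were lower than replicates 1 and 2. The mean fell from 8.91 ± 0.04 (SD, n = 3) to 8.14 ± 0.26 (SD, n = 4), a difference of -0.78 (SE 0.14, limma adjusted p = 0.00436), or 1.71-fold lower. Both other probe sets were lower too, at -0.94 and -1.17, and showed the same order of the pairs. The call ended with similar arrays as random blocks (adjusted p = 0.0507).

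Abca1 and Abcg1, both LXR targets and both exporters of cholesterol, lay on opposite sides of wild type. Abca1, which loads lipid-poor apolipoprotein A-I, read 6.58, 6.59 and 6.51 in wild type and 7.02, 7.03, 6.75 and 6.64 in knockout. All 4 knockout arrays were above all 3 wild-type arrays, replicate 4 by the least. The difference was 0.30 (SE 0.11, 95% interval 0.04 to 0.56), which did not pass after adjustment (limma adjusted p = 0.0665). It was 0.47 from replicates 1 and 2 alone (adjusted p = 0.000367), a fit in which 68.1% of all genes passed. From replicates 3 and 4 alone it was 0.13 (adjusted p = 0.104), where 57% of all genes passed. Without knockout replicate 4 it was 0.37 (adjusted p = 0.0239). With similar arrays as random blocks the adjusted p of Abca1 was 0.362. Abca1 had 1 probe set, whose wild-type mean exceeded that of 36.8% of the genes.

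Abcg1, which passes cholesterol to HDL particles, read 10.04, 10.12 and 10.13 in wild type and 9.66, 9.76, 9.66 and 9.65 in knockout. The knockout arrays were all lower and close together. The mean was 10.10 ± 0.05 (SD, n = 3) against 9.68 ± 0.05 (SD, n = 4), a difference of -0.41 (SE 0.06, limma adjusted p = 0.00176), or 1.33-fold lower. This size is ordinary here: 65.8% of all genes had a difference of that size or smaller. The second, dimmer probe set gave -0.59, of which -0.95 and -0.76 were the first pair of knockout arrays and -0.32 and -0.32 the other. The call ended with similar arrays as random blocks (adjusted p = 0.145) and when tested against a fold of 1.2 (adjusted p = 0.0922).

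Pltp, the phospholipid transfer protein gene, showed the largest difference of the 7. It read 9.60, 9.66 and 9.70 in wild type against knockout signals of 7.89, 7.52, 7.46 and 7.49. All knockout arrays were far below wild type, with replicate 1 the highest of them. The mean was 9.65 ± 0.05 (SD, n = 3) against 7.59 ± 0.20 (SD, n = 4), a difference of -2.06 (SE 0.11, limma adjusted p = 3.66e-05), or 4.17-fold lower. Of all genes, 3.81% were lower by at least 2-fold and past the threshold, and Pltp was the 1 gene of the 7 among them. The second probe set read 7.36, 7.30 and 7.10 in wild type and 4.96, 5.22, 4.49 and 4.59 in knockout, a difference of -2.44. With similar arrays as random blocks the adjusted p of Pltp was 0.00496.

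**Figure D2:**
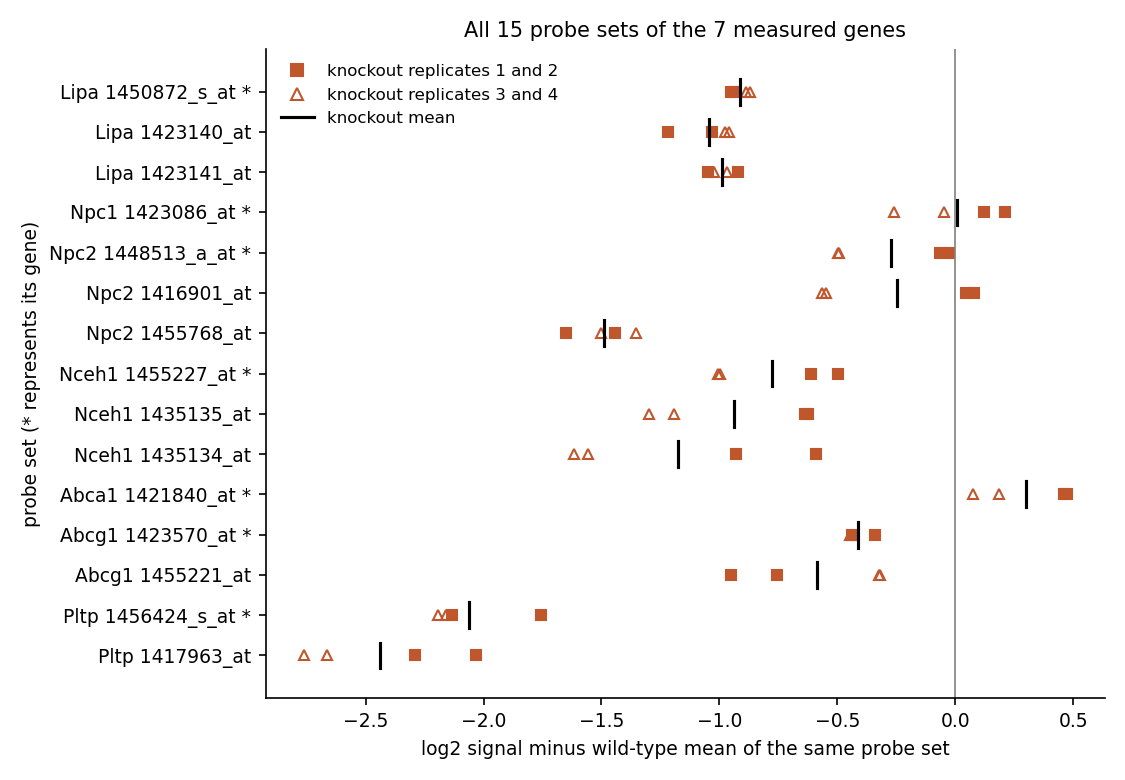
Each row is 1 of the 15 probe sets of the 7 genes, and each mark is the log2 signal of a knockout array minus the wild-type mean of that probe set (squares, replicates 1 and 2; triangles, replicates 3 and 4; black bar, knockout mean). Of the 15, 11 passed as lower and 0 as higher in a fit over all probe sets, of which 39.4% passed in either direction. Probe sets of the same gene are not independent. Npc2 has 1 probe set near -1.49 and 2 near -0.25 to -0.27, whose pairs of arrays lie apart.

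The 4 knockout arrays fell into pairs that no label names, so each value above is given by array. Over all probe sets, log2 differences had an SD of 0.13 to 0.19 between any 2 wild-type arrays, 0.16 between knockout replicates 1 and 2, and 0.14 between replicates 3 and 4, but 0.52 to 0.54 across the pairs. Wild type lay 0.56 to 0.57 from replicates 3 and 4 and 0.80 to 0.81 from replicates 1 and 2, so the pairs lay about as far from each other as the nearer pair from wild type. The single Gfi1 probe set was higher in knockout (4.93, 5.02, 3.97 and 3.97 in replicates 1 to 4, 2.66 to 2.98 in wild type), at a wild-type signal above 2.59% of genes, and its place relative to the edit is not known, so it does not check the labels. Of 10 macrophage markers, which the line should express, 7 were lower and 0 higher in knockout, beside 21.6% lower and 21.5% higher over all genes; their summed linear signal was 30411 to 30730 in wild type and 21378 to 22533 in knockout. Lyz2 was the brightest, at 13.31 and 12.86. Their part in the differences of the sterol genes was not tested, and fewer cells with a transcript and less of it per cell cannot be told apart. Of 35 markers of 7 other cell types, 2 were in the table: Itgae, a marker of some dendritic cells, at 2.17 and 2.21, and Hba-a2, of red cells, at 5.62 and 4.94, while the defining markers of the other 5 types are not analysed here.

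**Figure D3:**
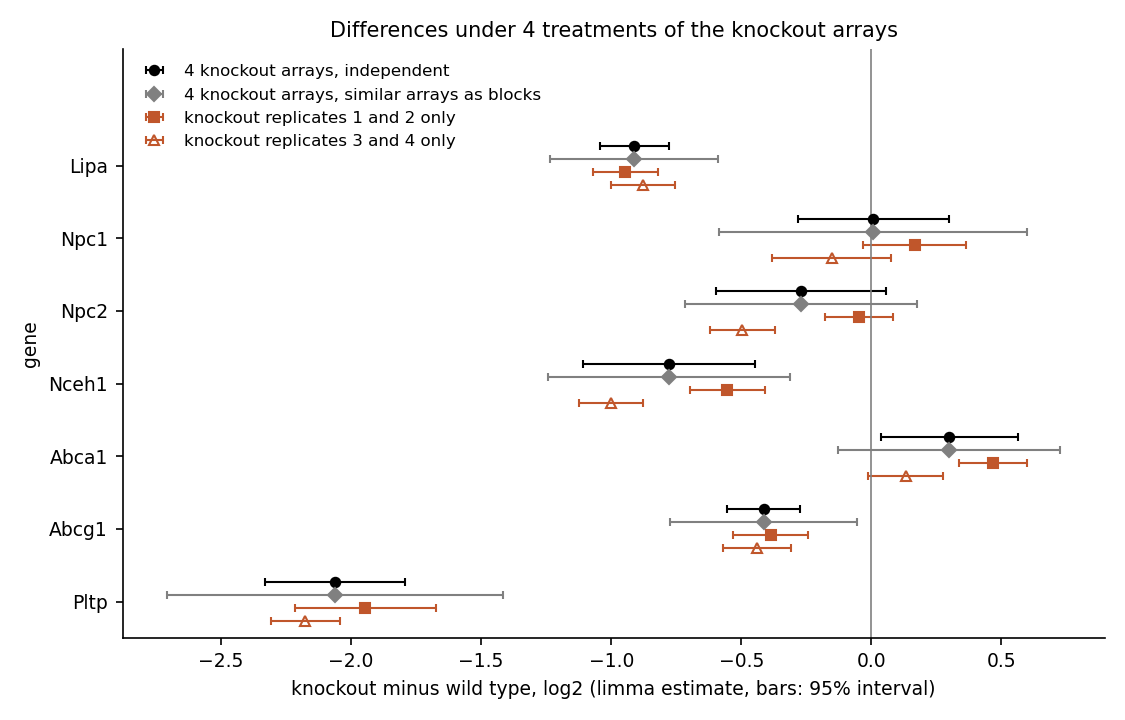
For each gene the knockout minus wild type difference is plotted on the log2 scale with its 95% limma interval, from all 4 knockout arrays taken as independent, from all 4 with similar arrays as blocks, from replicates 1 and 2 alone, and from replicates 3 and 4 alone. Pltp, Lipa, Nceh1 and Abcg1 lie left of 0 with their unadjusted intervals in all 4 fits; Abca1 is furthest right from replicates 1 and 2 (0.47), and Npc2 and Nceh1 are furthest left from replicates 3 and 4.

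The rest of the route was read from 8 lists by role, also chosen with earlier results known, holding 101 genes of which 63 were measured. Of the 63, 9 were higher and 20 lower (46.0% called, beside 43.1% of all genes), with a median difference of -0.08. The count was 17 without wild-type replicate 2 and 7 with similar arrays as random blocks, where 2879 and 904 of all 9999 genes were called.

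Among partners and coregulators of LXR, 0 of 10 were higher and 3 lower, so 30% were called beside 43.1% of all genes. With similar arrays as random blocks 0 of the 10 passed, beside 9.04% of all genes. The 3 lower were the p160 coactivator genes Ncoa3 (-1.61, SE 0.43, limma adjusted p = 0.0218), Ncoa2 (-0.90, SE 0.30) and Ncoa1 (-0.28, SE 0.07). Ncoa3 read 8.66, 8.50 and 8.35 in wild type and 6.19, 6.11, 7.67 and 7.62 in knockout, so both pairs were below wild type and replicates 1 and 2 were by far the lowest. The calls of Ncoa3 and Ncoa2 ended without any 1 of the wild-type arrays (highest adjusted p 0.0763 and 0.120), that of Ncoa2 also without knockout replicate 1 or 2, and that of Ncoa1 without wild-type replicate 2 (0.0653). Averaging probe sets gave Ncoa2 0.0036 and Ncoa3 -0.95. The dimerisation partner Rxrb had a difference of 0.52 (SE 0.18, adjusted p = 0.0547), and Tbl1x, a corepressor subunit and the brightest of the list, -0.03 (adjusted p = 0.735).

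Genes listed as other LXR targets went both ways, 3 higher and 2 lower of 10, beside 21.5% higher and 21.6% lower over all genes. Whether each responds to LXR in these mouse cells was not tested. Smpdl3a, a secreted phosphodiesterase, read 9.54, 9.56 and 9.47 in wild type and 6.53, 6.30, 7.44 and 7.31 in knockout, lower in all 4 arrays (-2.63, SE 0.28, limma adjusted p = 0.000512). Lpl, lipoprotein lipase and the brightest of the list, read 11.97 to 12.12 in wild type and 11.05 to 11.26 in knockout (-0.89, SE 0.07). Cd5l, a secreted scavenger-domain protein, was higher by 1.07 (SE 0.08), from a wild-type signal above only 3.51% of genes, and by 0.47 with 16 added to each signal. The desaturase gene Scd1 was higher by 0.70 (SE 0.20), a call that ended without any 1 wild-type array or knockout replicate 2 (highest adjusted p 0.0944); averaging its probe sets gave 1.17. Srebf1, the lipogenic factor, was the third higher gene (0.55, SE 0.09) and is named after its value was seen. With similar arrays as random blocks 3 of the 10 passed, beside 9.04% of all genes: Smpdl3a, Lpl and Cd5l.

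Sterol carriers and lysosomal membrane genes numbered 19, of which 8 were lower and 2 higher, or 52.6% called beside 43.1% of all genes. Osbpl8, an oxysterol-binding protein of the endoplasmic reticulum, read 8.68, 9.09 and 9.03 in wild type and 5.95, 5.84, 7.72 and 7.67 in knockout (-2.14, SE 0.52, limma adjusted p = 0.0151), and did not pass without wild-type replicate 2 or 3 (0.0560 and 0.0544). Scarb2, a lysosomal membrane protein, read 9.14 to 9.23 in wild type and 6.93, 6.92, 8.08 and 8.03 in knockout (-1.68, SE 0.33). Both genes were lowest in knockout replicates 1 and 2, the opposite order to that of Nceh1. The late endosome GTPase gene Rab7 was at -0.76 (SE 0.11), and Lamp1, the brightest of the list and a lysosomal membrane glycoprotein, at -0.58 (SE 0.09). Gramd1a, which moves sterol from the plasma membrane inwards, was higher by 0.66 (SE 0.11). Averaging probe sets gave Rab7 -0.35 and Scarb2 -1.08. With similar arrays as random blocks 2 of the 19 passed, Rab7 and Scarb2, a share near the 9.04% of all genes.

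Storage, uptake and enzyme genes were few. Their counts stand beside 21.6% lower and 21.5% higher over all genes. Of 6 esterification and storage genes, 1 was lower: Plin2, the coat protein of lipid droplets, at 10.64 to 10.72 in wild type and 9.40 to 9.52 in knockout (-1.22, SE 0.06, limma adjusted p = 2.30e-05). Of 6 uptake receptor genes, 1 was lower and 2 higher. The lipoprotein receptor gene Lrp1 read 8.03 to 8.15 in wild type and 6.51 to 6.71 in knockout (-1.43, SE 0.07), while its chaperone gene Lrpap1, the brightest of the list, stood at -0.07 (SE 0.08, adjusted p = 0.526). The fatty acid and lipoprotein receptor gene Cd36 (0.68, SE 0.17) and the HDL receptor gene Scarb1 (0.27, SE 0.08) were higher, but both calls ended without single arrays (highest adjusted p 0.0635 and 0.106), and averaging its probe sets turned Cd36 to -0.15.

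The last lists are small, and their counts again stand beside 21.6% lower and 21.5% higher over all genes. Of 4 oxysterol and late sterol synthesis enzymes, Hsd3b7, of bile acid synthesis (-0.71, SE 0.11), and the sterol isomerase gene Ebp (-0.58, SE 0.06) were lower. Dhcr7, the last step to cholesterol, was higher (0.51, SE 0.14). Of 5 PPAR and TFEB family regulators, Mitf (-0.57, SE 0.15) and the coactivator gene Ppargc1b (-0.54, SE 0.09) were lower and Ppard was higher (0.70, SE 0.20). The calls of Dhcr7, Mitf and Ppard ended without any 1 of the wild-type arrays (highest adjusted p 0.0732, 0.0737 and 0.0883), and that of Ppard also without knockout replicate 1 or 2. Mitf also did not pass as the mean of its probe sets (-0.46, limma adjusted p = 0.0675) or with replicate number as a block (-0.47, limma adjusted p = 0.0516). Without knockout replicates 3 and 4 Mitf was at -0.33 and still passed, as 68.1% of all genes did. Of 3 other ABC transporters of the A and G families, the lamellar body transporter gene Abca3 was lower (-0.43, SE 0.07). Without knockout replicates 1 and 2 the sizes fell by more than 1.5 times for Ncoa2 (-0.39), Ncoa3 (-0.86), Osbpl8 (-1.24), Scarb2 (-1.12), Scd1 (0.36), Cd36 (0.38), Dhcr7 (0.29) and Ppard (0.36), all of which still passed in that fit, as 57% of all genes did. The 7 of the 63 genes that still passed with similar arrays as random blocks were Smpdl3a, Lpl, Cd5l, Rab7, Scarb2, Plin2 and Lrp1. Of all genes, 9.04% passed in that fit.

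**Figure D4:**
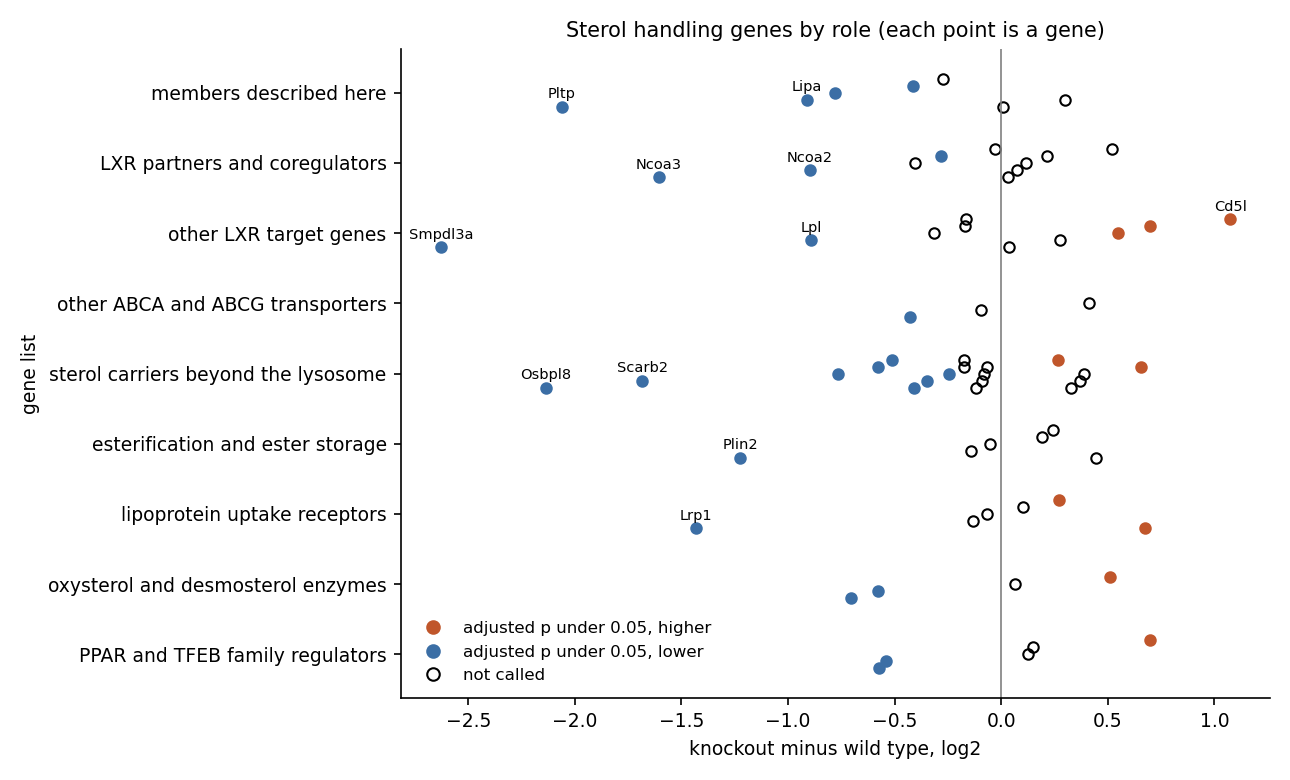
Each point is 1 gene, placed by its knockout minus wild type difference on the log2 scale and by its list. Filled points passed a limma adjusted p of 0.05 (orange for higher, blue for lower) and open points did not. The row named sterol carriers beyond the lysosome also holds genes of the lysosomal membrane and late endosome, such as Lamp1, Scarb2 and Rab7. Genes at least 0.85 from 0 are named; Smpdl3a at -2.63, Osbpl8 at -2.14 and Pltp at -2.06 lie furthest left.

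Likeness of pattern was measured as Pearson's r of the log2 signal over the 7 arrays, which fall into 3 clusters, so a high r mostly repeats the order of those clusters and is given as a description. The genes most like Pltp were Tsc1, Ctso, Mettl17, Vamp8 and Car6, with r from 0.998 to 0.999 and differences of -0.48 to -1.98. Those most like Abcg1 were D130020L05Rik, Pard6g, Arhgap17, Ndufb1 and Nagk (r from 0.993 to 0.998), with differences of -0.44 to -0.75. Those most like Abca1 were Snw1, Rab22a, Ltn1, Vps39 and Msh3 (r from 0.995 to 0.997), at 0.23 to 0.72, of which Rab22a and Ltn1 turned negative when probe sets were averaged. The same averaging took Tsc1 from -0.48 to -0.03 and ended its call (adjusted p = 0.783), and took Arhgap17 to -0.26; adding 16 to each signal took Pard6g to -0.20.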

How the data were processed

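RNA of RAW264.7 cells was measured on Affymetrix arrays, 3 wild type and 4 Gfi1 knockout, grouped by sample title. The submitters' processing notes name RMA. As deposited, each array holds linear intensities of 19431 probe sets (median 93.8 to 101), of which log2 was taken with no pseudocount. How many arrays there are limits the precision. A platform annotation gave 1 symbol to 17335 probe sets, several to 532 and none to 1564, which were left out with those of several. Each of 9999 genes was represented by its brightest probe set. Groups were compared with limma 3.58.1 (R 4.3.3) and Benjamini-Hochberg adjustment over all genes. The script was tested on simulated data with independent arrays, so that test does not cover the close pairs of arrays seen here. The genes and lists were chosen with earlier results of these data known. Named from the lists were up to 4 genes past the threshold by size of difference and the brightest gene; the 5 genes most like Abca1, Abcg1 and Pltp; Gfi1; and the brightest markers. Alternatives were another normalization, centring, a filter, an intensity trend, probe set means, a pseudocount of 16, a fold of 1.2, a replicate block, and single arrays left out. Those on pairs of similar arrays were added after the data were seen.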

Additional observations from a re-analysis of the deposited data

Results flagged for a closer look

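Among 48 named genes, 4 had a knockout array that stood apart from the other 3 by Dixon's gap test. Chance would give this for about 1 group in 20 if the 4 values were independent. The knockout arrays came as 2 close pairs, so that rate need not hold here. Pltp in knockout replicate 1 was 7.89, against 7.46 to 7.52 in the other 3, still below every wild-type array. Abcg1 in knockout replicate 2 was 9.76, against 9.65 to 9.66 in the others. Tsc1 in replicate 1 (5.66) and D130020L05Rik in replicate 2 (5.57) were named for their likeness to Pltp and Abcg1, so their values are no separate evidence. Among the 4 genes of the sterol route that passed, Lipa and Nceh1 had no such array.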

How the results depend on the processing

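Lipa and Pltp kept their direction and passed under every alternative run. The number of genes called fell to 1746 against a fold of 1.2 and to 904 with similar arrays as random blocks, and rose to 6814 without knockout replicates 3 and 4; leaving out 1 array gave 2879 to 4465. The 4 called members became 2 with the random blocks, where Abcg1 (-0.41, adjusted p = 0.145) and Nceh1 (-0.78, adjusted p = 0.0507) did not pass, and 4 to 5 when 1 array was left out. Abcg1 also did not pass against a fold of 1.2 (-0.41, adjusted p = 0.0922). The context count of 29 was 12 against that fold, 7 with the random blocks, 45 without knockout replicates 1 and 2, and 17 to 31 without 1 array. Npc2 passed as the mean of its probe sets (-0.67), by its dim probe set (-1.49) and without knockout replicates 1 and 2 (-0.50). Abca1 passed without knockout replicates 3 and 4 (0.47), where 68.1% of all genes passed. Its difference ranged from 0.24 to 0.37 without 1 array. Npc1 ranged from -0.061 to 0.095 without 1 array and was -0.15 without knockout replicates 1 and 2. The cause of these shifts was not tested. Npc1 and Abca1 had no value with dim genes left out.

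With replicate number as a block, 3805 genes were called and Abca1 passed at 0.37 (limma adjusted p = 0.0345). Deviations of same-numbered arrays from their group means correlated at 0.12, -0.09 and 0.11. Knockout deviations mostly carry the split between the pairs: wild-type replicate 1 correlated at 0.12 with knockout replicate 1 and also with replicate 2. These values therefore cannot tell whether the number pairs the samples, and the labels do not say. That block and leaving out knockout replicate 4 give Abca1 the same difference, since that array has no wild-type partner.

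For other named genes, 653 of 770 values kept side and direction, 102 lost their call, 6 gained one and 9 turned sign. Averaging probe sets turned Cd36 (-0.15), Rab22a (-0.56), Ltn1 (-0.19), Ncoa2 (0.0036), Lrpap1 (0.030) and Tbl1x (0.039). Tbl1x ranged from -0.052 to 0.0050 without 1 array and was 0.017 without knockout replicates 1 and 2, and Lrpap1 was 0.030 without replicates 3 and 4. No detection calls were used, so dim readings such as Cd5l in wild type cannot be told from background.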
